A study of Mus musculus with 2 samples.

Results

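The genes described here are 10 plasma proteins and enzymes of the acute phase response: the pentraxins Apcs and Crp, the haem and haemoglobin scavengers Hpx and Hp, the inter-alpha-trypsin inhibitor heavy chains Itih3 and Itih4, the lipopolysaccharide binding protein Lbp, the copper protein Cp, the metalloreductase Steap4 and the serine protease inhibitor Serpina3n. They were chosen by symbol, and 11 array probes carried an accession of 1 of them. Each of the 10 was clearly detected (well above background) in both genotypes, as were 13881 named genes in all. Mouse liver was compared between a wild-type pool (WT, background C57B6J) and a pool of CREBH-Tg mice on the same background, which carry a human CREBH cDNA in its active form, expressed mainly in liver. Both pools came from mice fed the HFHS diet for 12 weeks, so the diet is shared by both genotypes and its own effect was not measured. The promoter that drives the transgene, the number of mice in each pool and their age are not given in the sources used here. Each pool was hybridised to 1 Agilent array, so there were no biological replicates and no test between genotypes was possible.

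In the acute phase response, inflammatory cytokines, chiefly interleukin-6 acting through STAT3 and interleukin-1 acting through NF-kB and C/EBP factors, reach hepatocytes and change the output of secreted plasma proteins. Positive acute phase proteins bind pathogens, free haem, free haemoglobin, metals or proteases. CREBH is a liver-enriched transcription factor held in the endoplasmic reticulum membrane. It is released by site-1 and site-2 proteases, and the pentraxin genes Apcs and Crp are among the targets first linked to it. Apcs, which encodes serum amyloid P, is the pentraxin that responds most in the mouse acute phase, whereas Crp responds most in humans.

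Upstream sequences are shown for the adjacent pentraxin pair Apcs and Crp and for Serpina3n and Steap4, because these genes include both ends of the order of differences given below. Each is the 250 bases before the annotated start, read 5′ to 3′ on the gene's own strand, from RefSeq on GRCm38.p6. Capitals mark matches to the cyclic AMP response element core TGACG, the palindromic STAT pattern TTCNNNGAA and the C/EBP core pattern TTNNGNAA. The regions are chr1:172895055-172895304 on the minus strand for Apcs, chr1:172697806-172698055 on the plus strand for Crp, chr12:104406458-104406707 on the plus strand for Serpina3n and chr5:7960222-7960471 on the plus strand for Steap4.
Apcs: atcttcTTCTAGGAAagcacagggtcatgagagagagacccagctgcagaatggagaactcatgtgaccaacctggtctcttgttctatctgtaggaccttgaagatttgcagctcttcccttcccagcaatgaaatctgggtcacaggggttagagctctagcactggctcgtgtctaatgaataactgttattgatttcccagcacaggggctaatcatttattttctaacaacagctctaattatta
Crp: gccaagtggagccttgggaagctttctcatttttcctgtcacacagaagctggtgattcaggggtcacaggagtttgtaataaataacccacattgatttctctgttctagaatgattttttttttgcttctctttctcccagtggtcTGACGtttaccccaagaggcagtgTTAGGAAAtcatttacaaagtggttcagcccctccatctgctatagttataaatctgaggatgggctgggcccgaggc
Serpina3n: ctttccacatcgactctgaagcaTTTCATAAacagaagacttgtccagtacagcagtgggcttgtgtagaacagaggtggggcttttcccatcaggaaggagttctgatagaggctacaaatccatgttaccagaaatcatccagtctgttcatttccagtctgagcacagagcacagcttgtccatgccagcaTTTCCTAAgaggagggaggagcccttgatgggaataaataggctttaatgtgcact
Steap4: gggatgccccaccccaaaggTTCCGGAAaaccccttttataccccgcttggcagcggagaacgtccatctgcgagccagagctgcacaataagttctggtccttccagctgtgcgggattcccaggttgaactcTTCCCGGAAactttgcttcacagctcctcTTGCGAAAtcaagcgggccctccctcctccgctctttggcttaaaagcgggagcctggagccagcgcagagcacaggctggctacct

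Patterns were searched on both strands in the 300 bases around the start, 250 before and 50 after it, and 8 of the 10 genes had such a window, Cp with 2 starts. Crp alone of these 8 held TGACG, starting 102 bases before the start, a motif that 20.8% of all 32851 promoter windows hold. None of the 8 held the whole element TGACGTCA (1.79% of all windows) or the unfolded protein response element TGACGTGG (0.676%), both of which contain that core. CCACG, only a part of the endoplasmic reticulum stress response element, lay in Cp and Itih3 (32.8% of all windows). The whole element was not searched. The STAT pattern, which reads the same on both strands, lay in Apcs, Itih4 and Steap4 (8.30% of all windows). Its match started 244 bases before the start in Apcs, 116 bases in Steap4 and 51 bases in Itih4, the nearest of the 3. The C/EBP core pattern lay in Cp, Crp, Hpx, Serpina3n and Steap4 (40.7% of all windows), and in each of these 5 it also matched within the last 100 bases before the start, where 14.9% of all windows hold it. A loose NF-kB pattern lay in 6 of the 8 (50.8% of all windows), and in Steap4 a match to it overlapped the C/EBP match that starts 230 bases before the start. The strict HNF1 pattern lay in none of the 8 and in 3 of all windows. These matches describe letters in a window and were not tested as binding sites.

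Apcs was the pentraxin that differed most. Its processed intensity, the scanner software's background-subtracted brightness, was 2176 in the WT pool and 5018 in the CREBH-Tg pool. After scaling each array to its own 75th percentile, the log2 signal was 2.71 in WT and 4.02 in CREBH-Tg, a log2 ratio of 1.31 or 2.49-fold higher. Crp had intensities of 6911 and 7152, which scaled to 4.38 and 4.53, a log2 ratio of 0.16 or 1.12-fold higher. The 2 neighbouring pentraxin genes therefore differed from each other by 1.16 in log2 ratio. No other pentraxin gave a measurement: Ptx3, the long pentraxin made by immune and stromal cells, Ptx4, Nptx1 and Nptx2 were below detection in both genotypes (not well above background), and Nptxr had no named probe.

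**Figure D1:**
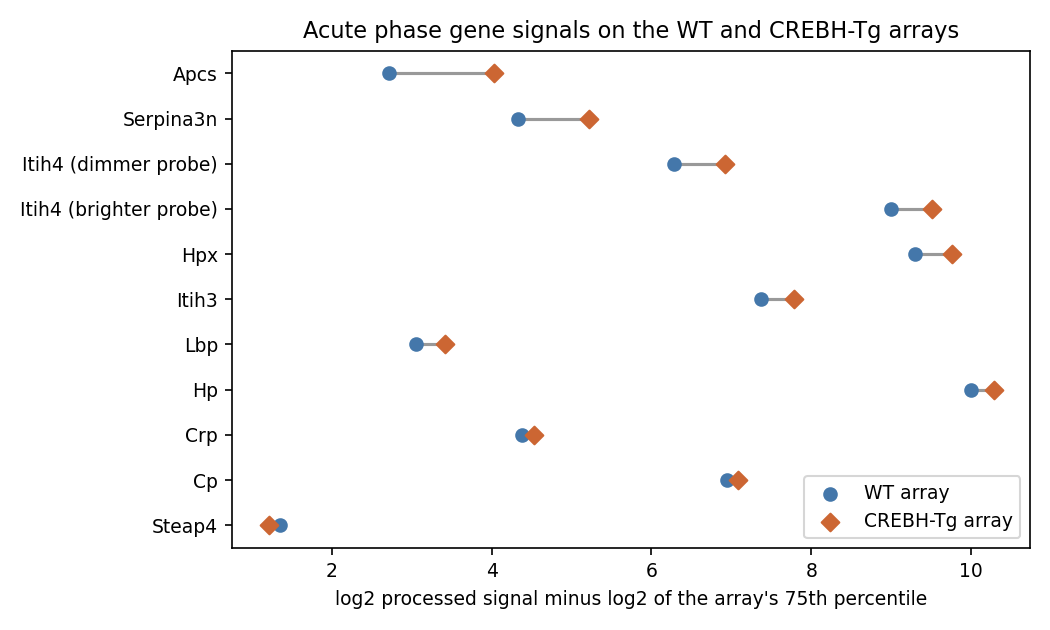
Log2 processed signal of each acute phase gene (x axis, relative to the 75th percentile of its array) for WT (circles) and CREBH-Tg (diamonds), 1 array each, with both Itih4 probes. Every CREBH-Tg point lies to the right of its WT point except that of Steap4, and the widest gap is that of Apcs, from 2.71 to 4.02; levels of different probes are not comparable.

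Error was measured in 2 ways, neither of which covers differences between mice, pools, labelling reactions or hybridisations. Repeated spots of the same probe gave a 95% range of 0.095 for the log2 ratio in the brightest of 3 equal signal classes, which held 9 of the 10 genes, and 0.17 in the middle class, which held Steap4. The scanner software's own error, 10% of the signal for these spots, gave a wider 95% range of 0.40. The value of Apcs lay beyond both ranges, and that of Crp lay beyond the spot noise but within the software's range. The scaling itself added 0.11 to every log2 ratio, since the 75th percentile was 333 in WT and 309 in CREBH-Tg.

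Serpina3n, which encodes an inhibitor of the antichymotrypsin type, had the next largest difference. Its intensity was 6692 in WT and 11454 in CREBH-Tg. Scaled log2 signals were 4.33 and 5.21, a log2 ratio of 0.88 or 1.85-fold higher, beyond both ranges of error. Serpina3n belongs to a mouse cluster of closely related genes on chromosome 12, and its neighbours Serpina3k and Serpina3m had log2 ratios of -0.0035 and 0.024. Probes of such similar genes can cross-hybridise, so separate values within the cluster are uncertain.

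Both inter-alpha-trypsin inhibitor heavy chains, which are secreted by hepatocytes and stabilise hyaluronan in the extracellular matrix or act as acute phase proteins, were higher in CREBH-Tg. Itih4 had 2 probes. The brighter, used as the gene's value, had intensities of 171022 and 225782, log2 signals of 9.0 and 9.51, and a log2 ratio of 0.51 or 1.42-fold higher. The dimmer probe, with intensities of 25968 and 37305, gave 0.63 or 1.55-fold higher, so the probes of this gene differed by 0.12, close to the median range of 0.13 over the 3376 genes with several measured probes. Itih3 had intensities of 55098 and 68268, log2 signals of 7.37 and 7.79, and a log2 ratio of 0.42 or 1.34-fold higher.

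The scavengers of haem and haemoglobin were also higher in CREBH-Tg, Hpx by more than Hp. Hpx, the plasma carrier of free haem, had intensities of 209259 and 267671, log2 signals of 9.30 and 9.76, and a log2 ratio of 0.46 or 1.38-fold higher. Hp, haptoglobin, which binds free haemoglobin, had intensities of 342210 and 384382, log2 signals of 10.01 and 10.28, and a log2 ratio of 0.28 or 1.21-fold higher. Neither spot was saturated. The value of Hpx lay just beyond the software's 95% range and that of Hp within it.

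Lbp, which carries bacterial lipopolysaccharide to the receptor CD14, had intensities of 2760 and 3297, log2 signals of 3.05 and 3.42, and a log2 ratio of 0.37 or 1.29-fold higher. Cp, ceruloplasmin, the copper-carrying ferroxidase of plasma, was near to equal. Its intensities were 40934 and 41875, its log2 signals 6.94 and 7.08, and its log2 ratio 0.14 or 1.1-fold higher. Steap4, a membrane reductase of iron and copper that is also induced by tumour necrosis factor in adipocytes, was the 1 gene of the 10 with a lower value in CREBH-Tg. Its intensities were 849 and 713, its log2 signals 1.35 and 1.21, and its log2 ratio -0.14 or 1.1-fold lower. At this scaling the value lay within the spot noise of its signal class.

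**Figure D2:**
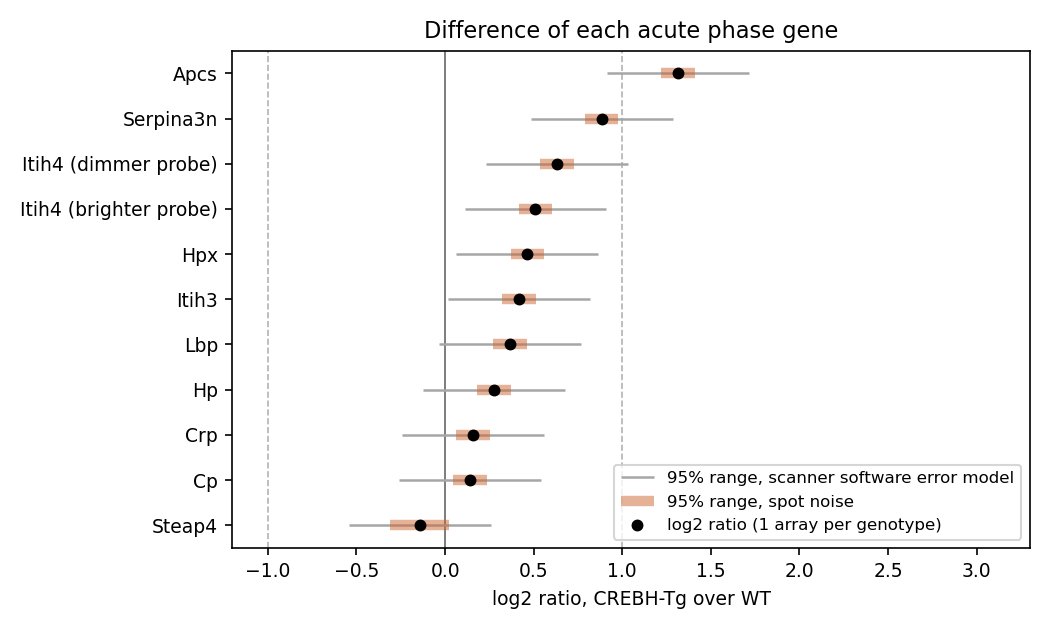
Log2 ratio of CREBH-Tg over WT for each probe of the acute phase genes (points, 1 array per genotype), with the 95% range of spot noise (thick bars) and of the scanner software's error (thin lines); dashed lines mark 2-fold. Apcs at 1.31 is the only point past 2-fold, and the thin lines of Lbp, Hp, Crp, Cp and Steap4 reach 0.

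From highest to lowest, the order of log2 ratios was Apcs, Serpina3n, Itih4, Hpx, Itih3, Lbp, Hp, Crp, Cp and Steap4. Of the 9 pairs of neighbours in this order, 3 differed by more than the spot noise of a difference: Apcs from Serpina3n by 0.43, Serpina3n from Itih4 by 0.37 and Cp from Steap4 by 0.28. The 6 pairs between, from Itih4 down to Cp, differed by 0.017 to 0.12, within a 95% range of 0.13. Adjacent genes from Itih4 to Cp were thus not separated by spot noise, although Itih4 and Cp themselves lie far apart.

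As a group, the genes lay above the middle of the array, with 9 of 10 log2 ratios above 0. Their median log2 ratio was 0.39, beside 0.027 over all 13881 genes and 0.051 over the 4627 genes of the brightest class. Of the brightest class, 20.3% had a higher log2 ratio than Crp, 23.7% than Cp and 89.8% than Steap4, itself of the middle class. This share was 6.98% for Hp, next above Crp in the order, and 0.195% for Apcs at the top. Log2 ratios above 0 were found in 56.2% of all genes and 66.1% of the brightest class. At least 1.5-fold higher were 2, Apcs and Serpina3n, against 2.33% and 1.12%, and under median scaling 3, with Itih4 at 0.60. At least 2-fold higher was 1, Apcs, against 0.663% and 0.303%. None of the 10 was at least 1.5-fold or 2-fold lower, sizes that 2.23% and 0.67% of all genes reached.

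The same 9 genes were higher beyond the spot noise of their class, which was so for 21% of all genes and 36.1% of the brightest class. Values beyond spot noise were thus frequent on these arrays. Higher by more than the software's range were 5 genes, Apcs, Serpina3n, Itih4, Hpx and Itih3, against 3.46% of the brightest class. The 4 genes with values between these ranges were Lbp, Hp, Crp and Cp. The genes were picked with earlier results of these arrays known, so these counts are a description. Over the alternatives in scaling, background correction, probe choice and filters, 2 to 6 genes lay beyond the software's range, with the fewest, Apcs and Serpina3n, after loess. Cp lay within the spot noise after loess (0.055) and quantile normalization (0.059) and in the authors' value table (0.081). Steap4 lay beyond its spot noise when scaled to the 75th percentile of detected probes (-0.17) and in the authors' value table (-0.20).

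**Figure D3:**
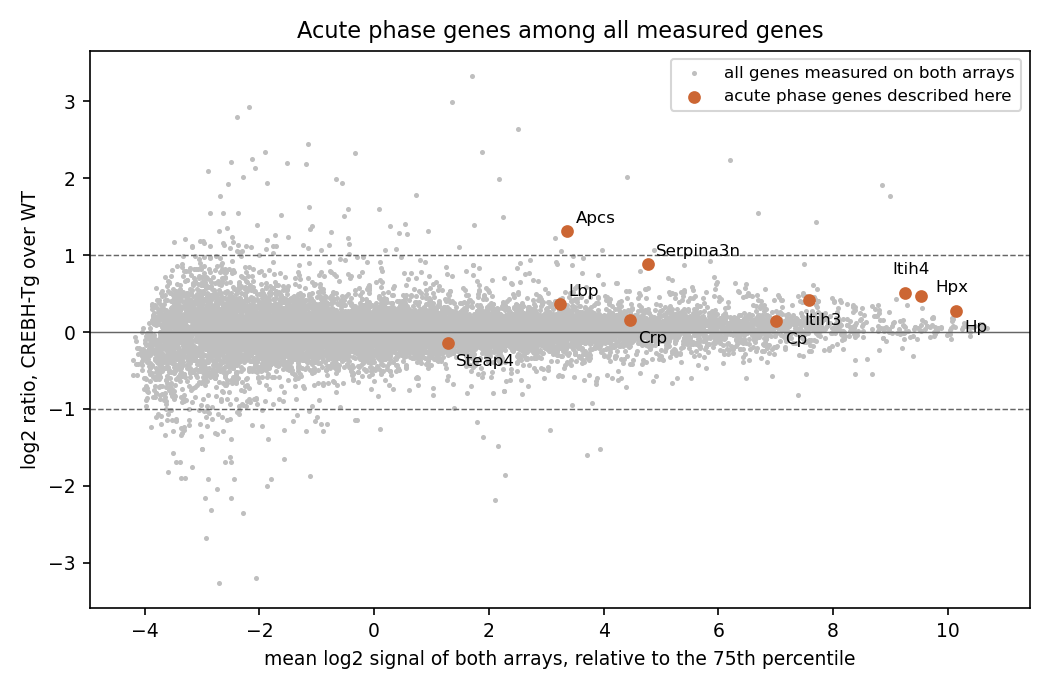
Log2 ratio of CREBH-Tg over WT (y axis) against the mean log2 signal of both arrays (x axis, relative to the 75th percentile) for 13881 genes (grey) and the 10 acute phase genes (orange, named); dashed lines mark 2-fold. The spread of all genes narrows with signal, and Apcs and Serpina3n stand above the band at their signal.

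Relatives of the acute phase genes were read in the same way. Of 29 family genes, 20 were measured on both arrays. In the inter-alpha-trypsin inhibitor family 6 of 6 measured genes had log2 ratios above 0, and 5 or 6 over the alternatives, since Itih2 ran from -0.0014 to 0.18. Beside this stand 56.2% of all genes and 66.1% of the brightest class. Without Itih3 and Itih4, 4 of 4 were above 0, with a median of 0.16. Itih1 was at 0.21, Ambp, which encodes the light chain bikunin, at 0.17, Itih5 at 0.16 and Itih2 at 0.094. The values of Itih5, which was dim, and Itih2 lay within spot noise. In gene order Itih4, Itih3 and Itih1 follow each other on chromosome 14, and their log2 ratios were 0.51, 0.42 and 0.21. Tnfaip6, an enzyme that transfers heavy chains to hyaluronan, was detected in CREBH-Tg alone, through a single probe out of its 3. Its fold bound, against the lowest signal counted as detected in WT and without spot noise, was 1.02-fold higher. This bound lay within the spot noise of dim genes.

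In the Serpina3 cluster 8 genes were measured, 5 of them above 0 (3 to 6 over the alternatives in scaling, background correction and probe choice). Beside this stand 56.2% of all genes and 66.1% of the brightest class. The median of the cluster was 0.027 and ran from -0.070 to 0.12. Serpina3n at 0.88 was followed by Serpina3i at 0.37, Serpina3f at 0.079 and Serpina3c at 0.031, and the signs of Serpina3c, Serpina3k and Serpina3m turned with the scaling. Serpina3h was at -0.12 and the dim Serpina3b at -0.41, both beyond spot noise at this scaling. Over the same alternatives as the count above 0 they reached -0.034 and -0.20, within spot noise. Serpina3a and Serpina3j were below detection in both genotypes, and Serpina3g had no named probe. In the STEAP family, of which all 4 genes were measured, Steap1 was at 0.39, Steap3 at -0.086, Steap4 at -0.14 and Steap2 at -0.21. At this scaling all lay within spot noise. Over the same alternatives as the count above 0, Steap1 reached 0.48 and Steap4 -0.20, both beyond it. The sign of Steap3 turned with the scaling.

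**Figure D4:**
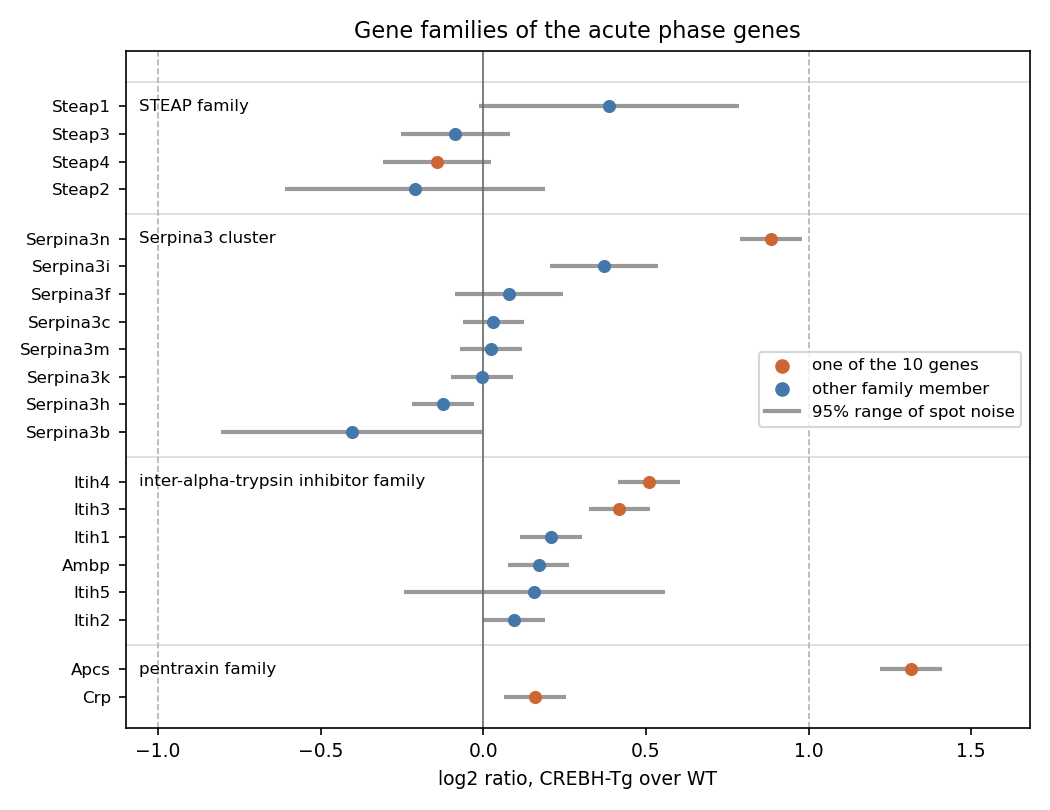
Log2 ratio of CREBH-Tg over WT for the measured genes of the pentraxin, inter-alpha-trypsin inhibitor, Serpina3 and STEAP families (points, 1 array per genotype), with the 95% range of spot noise (bars); orange points are among the 10 acute phase genes and dashed lines mark 2-fold. Apcs at 1.31 and Serpina3n at 0.88 lie apart from their relatives, while the 6 measured genes of the inter-alpha-trypsin inhibitor family lie above 0 at this scaling, Itih2 (0.094) nearest to it.

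Other positive acute phase proteins were higher as well. Of 22 measured on both arrays, 20 had log2 ratios above 0 (16 to 22 over the alternatives in scaling, background correction and probe choice). None of the 22 was dim, and beside this count stand 56.2% of all genes and 66.1% of the brightest class. Of the 22, 7 reached 1.5-fold higher and 5 of them 2-fold, beside 2.33% and 0.663% of all genes. Their median was 0.27 (0.17 to 0.36 over all alternatives). Lcn2, Saa2, Saa1 and Orm3 differed most, at 4.03-fold, 3.76-fold, 3.41-fold and 2.83-fold higher, each above the 2.49-fold of Apcs. A2m, an alpha-2-macroglobulin gene, was detected in WT alone, with measured log2 signals of -2.09 there and -6.52 in CREBH-Tg. Its fold bound was 5.50-fold lower in the latter, without spot noise. Among negative acute phase proteins, which fall in inflammation, 10 of 12 were above 0, a count that ran from 3 to 12 over the same alternatives. None of the 12 was 1.5-fold apart, the median was 0.064 (-0.053 to 0.15 over all alternatives) and the gene farthest from 0 was Apoa1 at 0.35.

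No measured gene of the signalling pathways upstream was 1.5-fold apart. In the interleukin-6 and STAT3 pathway 16 of 20 genes were measured, and 10 were above 0 (6 to 16 over the same alternatives), beside 56.2% of all genes. Their median log2 ratio was 0.022, which turned sign over the alternatives (-0.039 to 0.11). The genes ranged from -0.076 to 0.20, with the receptor subunit Il6st at the top. The ligands Il6 and Osm were detected in CREBH-Tg alone, near the limit of detection. There, the fold bounds, which leave out spot noise, were 1.34-fold higher for Il6 and 1.16-fold for Osm. The Osm bound (log2 0.22) lay within the 95% range of spot noise of dim genes (0.40). In all, 762 named genes were detected in CREBH-Tg alone and 245 in WT alone, so such a pattern was common. In the interleukin-1 and NF-kB pathway 16 of 18 genes were measured and 7 were above 0 (3 to 8 over the same alternatives). Their median was -0.065 (-0.13 to 0.024 over all alternatives). Beyond spot noise, 5 genes were lower and 0 higher. The share of all genes lower beyond spot noise was not counted, so the 5 are not read as a difference of the pathway. The share higher was 21%. The lower genes were the receptors Tnfrsf1b at -0.53 and Il1r1 at -0.33, the NF-kB regulators Nfkbiz at -0.48 and Tnfaip3 at -0.32, and the kinase gene Chuk at -0.16, of which Tnfrsf1b and Nfkbiz were dim. Over the same alternatives as the counts above 0, Tnfrsf1b and Nfkbiz reached -0.29 and Chuk -0.073, each within the spot noise of its class. Il1r1, Nfkbiz, Tnfaip3 and Chuk were named after their values were seen. Il1rn, the interleukin-1 receptor antagonist, was detected in CREBH-Tg alone. Its fold bound was 1.63-fold higher there, taken from its own undetected WT signal and without spot noise.

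Partner genes of the acute phase proteins lay on both sides of 0. Log2 ratios above 0 are common on these arrays (56.2% of all genes, 66.1% of the brightest class). Among genes of lipopolysaccharide recognition 6 of 9 were above 0 (5 to 8 over the same alternatives) with a median of 0.13. This list includes Lbp, and without it 5 of 8 were above 0 with a median of 0.084. Cd14, to which Lbp passes its ligand, was lowest at -0.43, and Tlr4 was highest at 0.40 (0.072 to 0.49 over the same alternatives). Among genes of haem and haemoglobin handling 8 of 10 were above 0 (6 to 8), none was 1.5-fold apart and Hpx was farthest from 0. Without Hp and Hpx, which this list includes, 6 of 8 were above 0 with a median of 0.064. Among genes of copper handling 8 of 10 were above 0 (6 to 10), and the metallothioneins Mt2 and Mt1 were 2.92-fold and 2.68-fold higher, whereas Cp itself was 1.1-fold higher. Without Cp, 7 of 9 genes of this list were above 0 with a median of 0.12. A list of 8 genes held Creb3l3 (CREBH), the site-1 and site-2 protease genes, and related factors and stress genes of the endoplasmic reticulum. Of these 8, 5 were above 0 (3 to 6) with a median of 0.044 (-0.023 to 0.13 over all alternatives). Mbtps2, which encodes the site-2 protease, was farthest from 0 at -0.38, within the spot noise of dim genes. Mbtps1, which encodes the site-1 protease, was at 0.23 (0.16 to 0.31 over the alternatives in scaling, background correction and probe choice). The mouse Creb3l3 probe was at -0.0041, a sign that turned with the scaling. Since the transgene is human cDNA, this does not check the genotype labels.

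**Figure D5:**
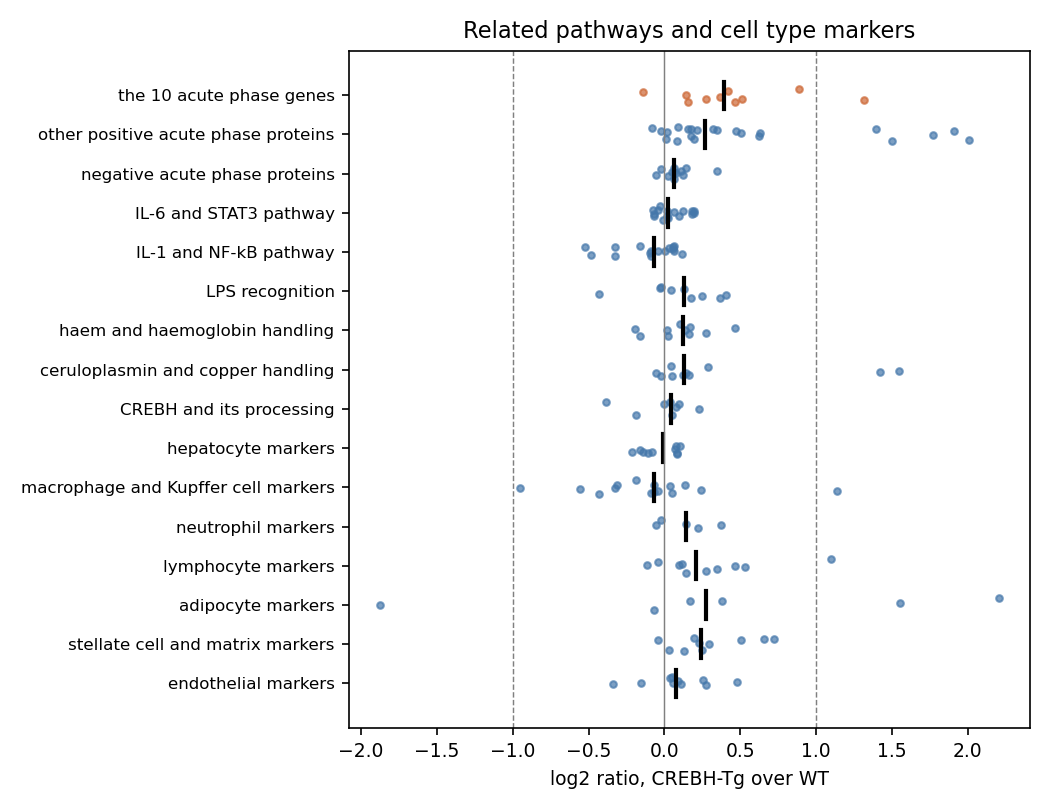
Log2 ratio of CREBH-Tg over WT for the 10 acute phase genes (orange) and for genes of related pathways and cell type markers (blue), 1 point per measured gene with its list median as a black bar; dashed lines mark 2-fold. The medians of the 10 genes (0.39) and of the other positive acute phase proteins (0.27) lie right of those of the interleukin-6 (0.022) and interleukin-1 (-0.065) pathways.

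Markers of the cell types that liver RNA can hold were read beside these values, since in bulk tissue a change in cell number and a change in RNA per cell cannot be told apart. Each count of markers above 0 stands beside 56.2% of all genes and 66.1% of the brightest class. Hepatocyte markers, all 10 detected in both genotypes, had a median log2 ratio of -0.0070 (-0.11 to 0.082 over all alternatives), and Ass1 was farthest from 0 at -0.21. Their summed signal, in units of each array's 75th percentile, was 5289 for WT and 5415 for CREBH-Tg. Such a sum follows the brightest probes of its list and is no measure of cell number, since levels of different probes are not comparable. Macrophage and Kupffer cell markers had 5 of 15 above 0 (3 to 8), a median of -0.070 (-0.17 to 0.019 over all alternatives) and a summed signal of 203 for WT against 180.2 for CREBH-Tg. Trem2 was 2.20-fold higher and Marco 1.94-fold lower.

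Lymphocyte markers had 8 of 10 above 0 (8 to 9) and a median of 0.21 (0.11 to 0.30 over all alternatives). Their summed signals were 104 and 129.5. Of the 10, 7 were dim, so these sums rest mostly on the brighter probes. Cd3d was 2.14-fold higher, beside log2 ratios of 0.53 for Cd3g and 0.093 for Cd3e. Gzmb, a cytotoxic granule protease gene, was detected in WT alone, with a fold bound of 1.76-fold lower in CREBH-Tg. Cd8a and Ncr1 were below detection in both genotypes. Neutrophil markers had 3 of 5 above 0 (3 to 5) and a median of 0.14 (-0.054 to 0.23 over all alternatives). Their summed signals were 20.5 and 21.3, with Camp farthest from 0 at 0.37. Their defining genes Mpo, Ngp, Ltf and Cxcr2 were below detection in both genotypes. Adipocyte markers had 4 of 6 above 0 (4 to 5), a median of 0.27 (0.21 to 0.54 over all alternatives) and summed signals of 7.86 and 8.94. Among them Adipoq (4.61-fold) and Retn (2.94-fold) were higher, Cidea was 3.67-fold lower, and Lep and Plin1 were detected in CREBH-Tg alone. Several of these dim markers lay closer to 0 after normexp background correction, with log2 ratios of 0.99 for Adipoq, 0.79 for Retn, 0.70 for Trem2 and 0.61 for Cd3d and -1.14 for Cidea. Stellate cell and matrix markers had 9 of 10 above 0 (8 to 10) and a median of 0.24 (0.16 to 0.33). Their summed signals were 76.8 and 81.0, with Lum 1.65-fold and Timp1 1.58-fold higher. Endothelial markers had 8 of 10 above 0 (5 to 8), a median of 0.074 (0.013 to 0.16) and summed signals of 113 and 124, with Emcn at 0.48. The part of any of these cell types in the values of the 10 genes was not tested.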

How the data were processed

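Liver RNA of 1 WT and 1 CREBH-Tg pool was labelled with Cy3 and read on 1 Agilent array each, per the labels' protocols. Per the file headers, the authors used Agilent Feature Extraction 10.10.1.1, and the processed signal they deposited is a linear intensity from which background was subtracted, with no scaling across the arrays. The authors' value table equals it times a constant, 2.59 for WT and 2.68 for CREBH-Tg, whose origin the labels and headers do not give. Values are log2 of the deposited signal over the array's 75th percentile. Outlier spots (300) were dropped, spots of a probe were averaged, and a gene took its brightest probe well above background on both arrays in over 50% of its spots. Probes were named through RefSeq accessions of GRCm38.p6 (27233 of 55677 probes). A fold bound compares a signal with the lowest well above background on the other array, or the dim probe's own if higher. It leaves out spot noise, so it is not a strict minimum. Named genes were the 10, all genes of their families, Creb3l3 and, in each other list, up to 4 genes at least 1.5-fold apart or the one farthest from 0. A2m, Tlr4, Mbtps1, Cd3e, Cd3g and the genes measured on 1 array were chosen after their values were seen. The members and lists were chosen with earlier results of these data known. Steps were tested on simulated data. Protein sequences were not used here. Tools were R 4.3.3, limma 3.58.1, Python 3.11.15, numpy 2.4.6, pandas 2.3.3 and matplotlib 3.10.9.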

Additional observations from a re-analysis of the deposited data

How the results depend on the processing

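The 10 genes were recomputed with scaling to the median, to the 75th percentile of detected probes, with quantile or loess normalization, with normexp on the median spot signal, from the authors' value table, with the mean over probes, with the filter on dim probes removed or tightened, and with outlier spots kept. In all of these 9 of 10 log2 ratios were above 0, 1 gene reached 2-fold higher and 0 reached 2-fold lower, and the median ran from 0.324 (quantile normalization and loess) to 0.481 (median scaling, which moves all genes to a median of 0.116). At other thresholds the count was 2 genes at 1.5-fold (3 under median scaling) and 0 at 3-fold. Values moved by more than spot noise for Hp (0.157), Hpx (0.350) and Itih4 (0.399) after loess and for Itih3 (0.318) after quantile normalization. Apcs ran from 1.253 to 1.40, Serpina3n from 0.822 to 0.973 and Steap4 from -0.203 to -0.0535. With no filter on dim probes the neutrophil marker median turned to -0.0544, where more genes enter than in the main values, and the adipocyte marker median moved to 0.540. Under the stricter filter the lymphocyte marker median moved to 0.113. The split of 2-fold calls over all genes, 92 higher and 93 lower, was 115 and 77 under median scaling, 42 and 16 under normexp, 29 and 11 under the stricter filter and 605 and 782 with no filter. With 1 array per genotype the number of arrays limits every value, and no replicate could be left out. No paired analysis was possible because each genotype has 1 array. For motifs, the shorter window of 100 bases kept the STAT pattern in Itih4 only, and TGACG and CCACG in 0 of the 8 genes.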

Other observations

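Genes lying beside the 10 acute phase genes on their chromosomes had a median log2 ratio near that of all genes. The 3 protein-coding genes on each side, by order in the RefSeq table, gave 48 distinct neighbours, a set chosen after the values of the acute phase genes were known. Of the 29 measured on both arrays, 16 had log2 ratios above 0, against 56.2% of all genes, and their median was 0.024 beside 0.027 over all genes. At least 1.5-fold higher were 2, beside 2.33% of all genes: Adig, an adipogenesis gene near Lbp, at 1.64-fold, and Cavin3, a caveolar protein gene near Hpx, at 1.53-fold, and both were dim. None was 1.5-fold lower. The directly adjacent measured genes outside the families lay on both sides of 0. Dusp23, a phosphatase gene next to Crp, was at 0.29. Txnl4b next to Hp was at 0.22, and Dhodh on the other side of Hp at 0.0047. Trim3 next to Hpx was at -0.033 and Sri next to Steap4 at -0.16. Mustn1 next to Itih4 was at 0.49 and Hps3 next to Cp at -0.34, both dim.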
